A study of Mus musculus with 4 samples.

Results

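The comparison of dendritic cells (DCs) of the CD8-equivalent type without and with the microRNA miR-142 rested on 2 of the 4 arrays of the series. The wt array held RNA of miR-142+/+ cells and the ko array RNA of miR-142-/- cells, both on the C57BL/6 background. Bone marrow had been cultured for 8 days with Flt3 ligand at 200 ng/ml, and the cells were sorted as B220-, CD11c+, CD172-, CD24+ and CD11b low. The other 2 arrays held CD4-equivalent DCs of the same genotypes, sorted as B220-, CD11c+, CD172+, CD24 low and CD11b+, and are used here only side by side. The labels name no Cre driver for the knockout, and the sources used here do not give the age or number of the mice or the number of cultures. With 1 array a group there is no replicate spread and no p-value, and every difference below compares 2 arrays, not 2 genotypes with a known error.

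Of 19938 genes with a probe set of their own, 9972 were compared, those whose higher value on the 2 CD8-equivalent arrays reached a floor of 5.68. The floor is the median of all probe sets that name 1 gene, on the log2 scale of the deposited values. The value just inside it was that of Fzd10, at 5.26 in wt and 5.68 in ko, and the value just outside it that of Chpf, at 5.68 and 5.55. Differences are ko minus wt on the log2 scale, so 1 stands for 2-fold. A gene was counted as higher or lower in ko at 2-fold or more.

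MicroRNAs are short RNAs that guide Argonaute proteins to messenger RNAs, mostly by pairing of their seed, bases 2 to 8, with a site in the message, and the bound message is repressed or degraded. The miR-142 gene is transcribed across blood cells, and its hairpin gives a 5p and a 3p mature RNA with different seeds. CD8-equivalent DCs of Flt3 ligand cultures correspond to the cDC1 lineage of the spleen, which takes up dead cells and presents their antigens to CD8 T cells, and depends on the transcription factors IRF8 and BATF3. CD4-equivalent DCs correspond to the cDC2 lineage.

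The mature RNAs of the Mir142 locus are shown first, because their seeds define which messages they can pair with. These mature RNAs were not measured here. They are taken from RefSeq on the mouse assembly GRCm38.p6, 5′ to 3′, with the seed in capitals. The 3p RNA lies at chr11:87756903-87756925 and the 5p RNA at chr11:87756867-87756887, both on the plus strand within the non-coding gene Mir142. The third RNA, from Mir142b at chr11:87756906-87756925, is read from the minus strand of the same locus.
mmu-miR-142a-3p: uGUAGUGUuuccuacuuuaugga
mmu-miR-142a-5p: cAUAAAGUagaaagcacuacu
mmu-miR-142b: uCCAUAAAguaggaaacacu
The 3p seed pairs with ACACUAC in a message, the 5p seed with ACUUUAU and the miR-142b seed with UUUAUGG. None of these 3 seeds recurred among the other mature names in the table of 1679 mouse microRNAs.

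The Mir142 probe set read 9.87 in wt and 4.79 in ko CD8-equivalent DCs, 33.8-fold lower and under the floor in ko. In CD4-equivalent DCs it read 10.37 and 4.92. Both ko arrays were thus far below both wt arrays, as their labels say. The deleted stretch is not described in the sources used here, and the probe set reads the gene's transcript, not the mature RNAs.

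The genes of the sort markers differed little between the CD8-equivalent arrays. Itgax, which encodes CD11c, read 11.04 in wt and 11.30 in ko, and Cd24a read 12.76 and 12.72. Sirpa, which encodes the CD172a that the gate excluded, read 9.69 and 9.67, and Itgam, which encodes CD11b, 10.01 and 9.89. Ptprc, whose B220 isoform the gate excluded, read 12.21 and 12.01, and its probe set does not separate isoforms. The genes of a gate cannot show a finding between cells passed through it. Clec9a, the receptor for exposed actin on dead cells, was not used in the gate and read 10.89 in wt and 11.15 in ko, and Irf8 read 12.87 and 12.98. These markers of the CD8-equivalent subset were therefore well above the floor on both arrays. Most other markers of the subset had lower values in ko, and 20 of the 23 compared lay below wt.

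Of the 9972 compared genes, 114 (1.14%) were at least 2-fold higher in ko, 100 (1.00%) were at least 2-fold lower, and 214 (2.15%) were at least 2-fold apart. At 1.5-fold the counts were 460 higher and 347 lower, at 4-fold 9 and 18, and at 8-fold 3 and 4. Most genes lay close to the diagonal: the central differences, from the 5th to the 95th percentile, ran from -0.48 to 0.56, with a median of 0.004. The ko value was the higher one for 50.7% of compared genes and the lower one for 49.3%. Differences of 2-fold were not confined to dim genes, since they made up 2.36% of genes whose higher value was under 7, 2.70% of those from 7 to 9, and 1.68% of those at 9 or more. At the 2-fold line, Zbtb41 (1.001) lay just inside and Cd69 (0.997) just outside on the higher side, and Rab32 (-1.009) and Dkkl1 (-0.99995) on the lower side.

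**Figure D1:**
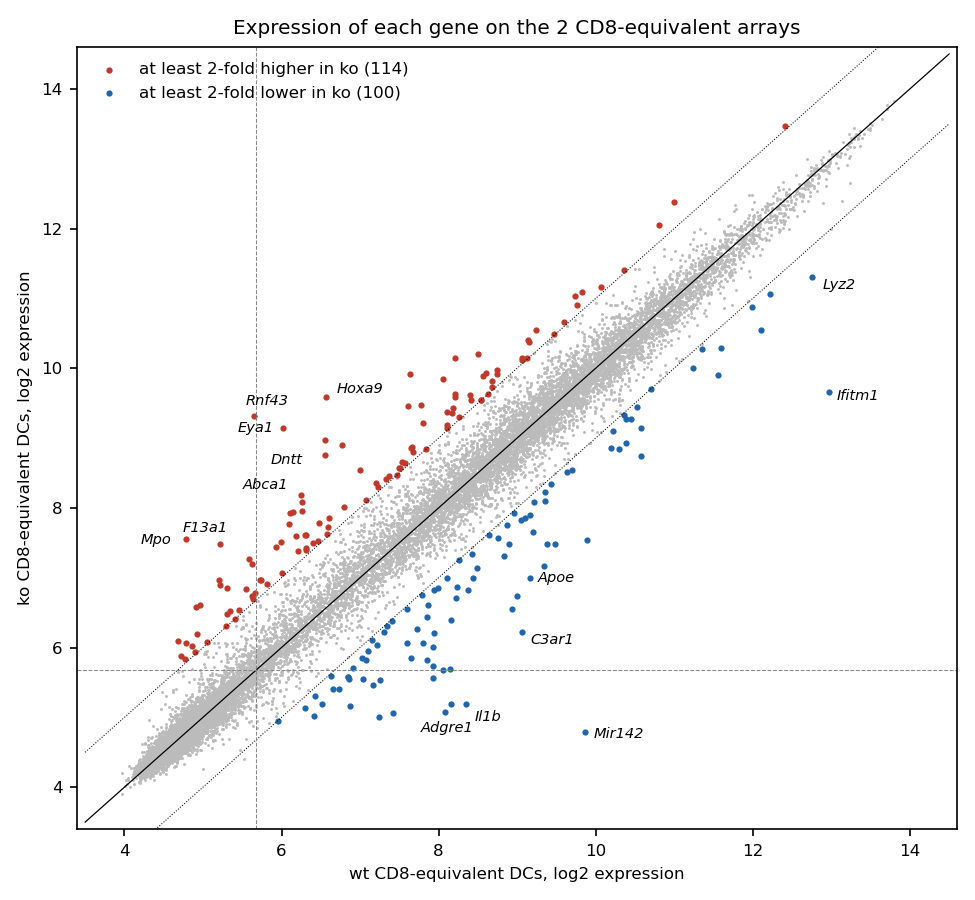
Log2 expression of all 19938 genes in wt (horizontal) and ko (vertical) CD8-equivalent DCs, 1 array each; the solid line marks equal values, dotted lines mark 2-fold and dashed lines the floor of 5.68. The 114 higher genes (red) and 100 lower genes (blue) stand off a narrow diagonal, and Mir142 lies farthest from it, at 9.87 in wt and 4.79 in ko.

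The measuring noise of the arrays gives a lower limit to the unknown error. Among 645 genes with several probe sets at or above the floor, the differences from probe sets of the same gene had an SD of 0.13, and in 1 gene they lay 1 or more apart. Among the 9966 genes under the floor on both arrays the differences had an SD of 0.13 as well, and 1 gene differed by 1 or more. These values cover the probes and the array only. They say nothing of how cultures or mice of 1 genotype vary.

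The gene with the largest positive difference was Rnf43, which encodes a ubiquitin ligase that clears Wnt receptors from the cell surface. It read 5.64 in wt and 9.32 in ko, 12.8-fold higher. Eya1, a phosphatase and transcriptional coactivator of developing organs, read 6.02 and 9.14, and Hoxa9, a homeobox factor of blood progenitors, 6.57 and 9.59. These 3 were the genes at least 8-fold higher in ko, and they stood between 3.46 and 3.71 higher in ko CD4-equivalent DCs too.

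Other genes among the 25 highest encode granule enzymes or proteins of blood cell precursors. Mpo, the myeloperoxidase of neutrophil and monocyte precursors, read 4.79 in wt and 7.55 in ko. Ctsg, which encodes the granule protease cathepsin G, read 6.26 and 7.96. Dntt, the polymerase that adds bases to antigen receptor junctions, read 6.56 and 8.75, 4.59-fold higher. Wt was thus under the floor for Mpo and within 1 of it for Ctsg and Dntt, and ko was above it for all 3. F13a1, which encodes a subunit of clotting factor XIII made by monocytes and platelets, read 5.22 and 7.48. Gfi1b, a transcriptional repressor that acts in erythroid and megakaryocyte development, read 7.61 and 9.46. Thbs1, the matrix protein thrombospondin, read 6.26 and 8.08.

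Several of the other highest genes encode surface and signalling proteins. S1pr3, a receptor for sphingosine-1-phosphate, read 8.50 in wt and 10.21 in ko, and Chrm3, a muscarinic acetylcholine receptor, 6.10 and 7.93. Tmem176a, a membrane protein of myeloid cells, read 8.20 and 10.15, and Tmem119 8.05 and 9.85. The fold of these 4 genes ran from 3.27 to 3.85. Cd2, the adhesion receptor for CD48, read 4.97 in wt and 6.61 in ko, and Clnk, an adaptor of immune receptor signalling, 6.10 and 7.77.

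Of the remaining highest genes, Abca1, the pump that exports cholesterol to apolipoproteins, read 6.25 in wt and 8.18 in ko, 3.81-fold higher. Meis1, a homeobox partner of HOXA9, read 7.78 and 9.47. Igf2bp3, an RNA-binding protein of fetal cells, read 6.15 and 7.94. The level in ko was above that in wt by more than 3-fold for each. Mid1, a ubiquitin ligase on microtubules, read 6.56 and 8.97, Ak4, a mitochondrial adenylate kinase, 5.22 and 6.89, and Drc7, a gene of motile cilia, 6.77 and 8.90. The list is completed by Skida1 (4.92 in wt and 6.57 in ko), AA467197 (5.58 and 7.26) and the kallikrein genes Klk1b11 (7.64 and 9.92) and Klk1b27 (5.20 and 6.97). The Klk1b genes are close paralogs whose probes may read each other's transcripts, so their values are uncertain.

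Below Mir142, the lowest gene was Ifitm1, whose product blocks the entry of viruses at membranes. It read 12.97 in wt and 9.66 in ko, 9.9-fold lower, and a second probe set of the gene read 12.68 and 8.76. Il1b, which encodes interleukin-1 beta, read 8.35 and 5.19, 8.97-fold lower. Adgre1, which encodes a surface receptor of macrophages, read 8.09 and 5.08, 8.02-fold lower. Il1b and Adgre1 were both under the floor in ko, so their folds depend on how well the array resolves low values.

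Several of the 25 lowest genes encode receptors. The anaphylatoxin receptor gene C3ar1 read 9.06 in wt and 6.23 in ko, the orphan receptor gene Gpr82 8.16 and 5.19, and Ptger3, a receptor for prostaglandin E2, 8.05 and 5.68. The serotonin receptor gene Htr7 read 7.93 and 6.01, and F2rl2, a protease-activated receptor gene, 9.39 and 7.48. These 5 genes of G protein-coupled receptors were 3.74-fold to 7.87-fold lower in ko. Among receptors of innate recognition, Tlr13, a sensor of bacterial ribosomal RNA, read 9.34 and 7.17, the lectin gene Clec4a1 8.93 and 6.56, and the immunoglobulin-like receptor gene Lilr4b 9.89 and 7.54. Itgae, which encodes the integrin chain CD103, read 7.42 in wt and 5.06 in ko, 5.13-fold lower and under the floor.

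The rest of the 25 lowest genes have varied roles. Lpl, the lipase of lipoproteins, read 8.9998 in wt and 6.73 in ko, and Apoe, the lipoprotein ligand secreted by macrophages, 9.16 and 7.001. B4galt6, which makes lactosylceramide, read 8.14 and 5.69. Each stood more than 4-fold lower in ko. Mmp12, a metalloelastase of macrophages, read 9.48 and 7.49, Gpnmb, a glycoprotein of lysosomes and melanosomes, 10.58 and 8.75, and Atp6v0d2, a subunit of the vacuolar proton pump, 7.94 and 6.20. The complement gene C1qb read 7.93 and 5.56, and the growth factor gene Igf1 8.15 and 6.40. Ahrr, the repressor of the aryl hydrocarbon receptor, read 7.86 and 5.82. The transporter gene Slc16a14 read 7.24 and 5.00, the chitinase-like gene Chil5 7.93 and 5.73, and Ms4a6d 7.65 and 5.85.

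**Figure D2:**
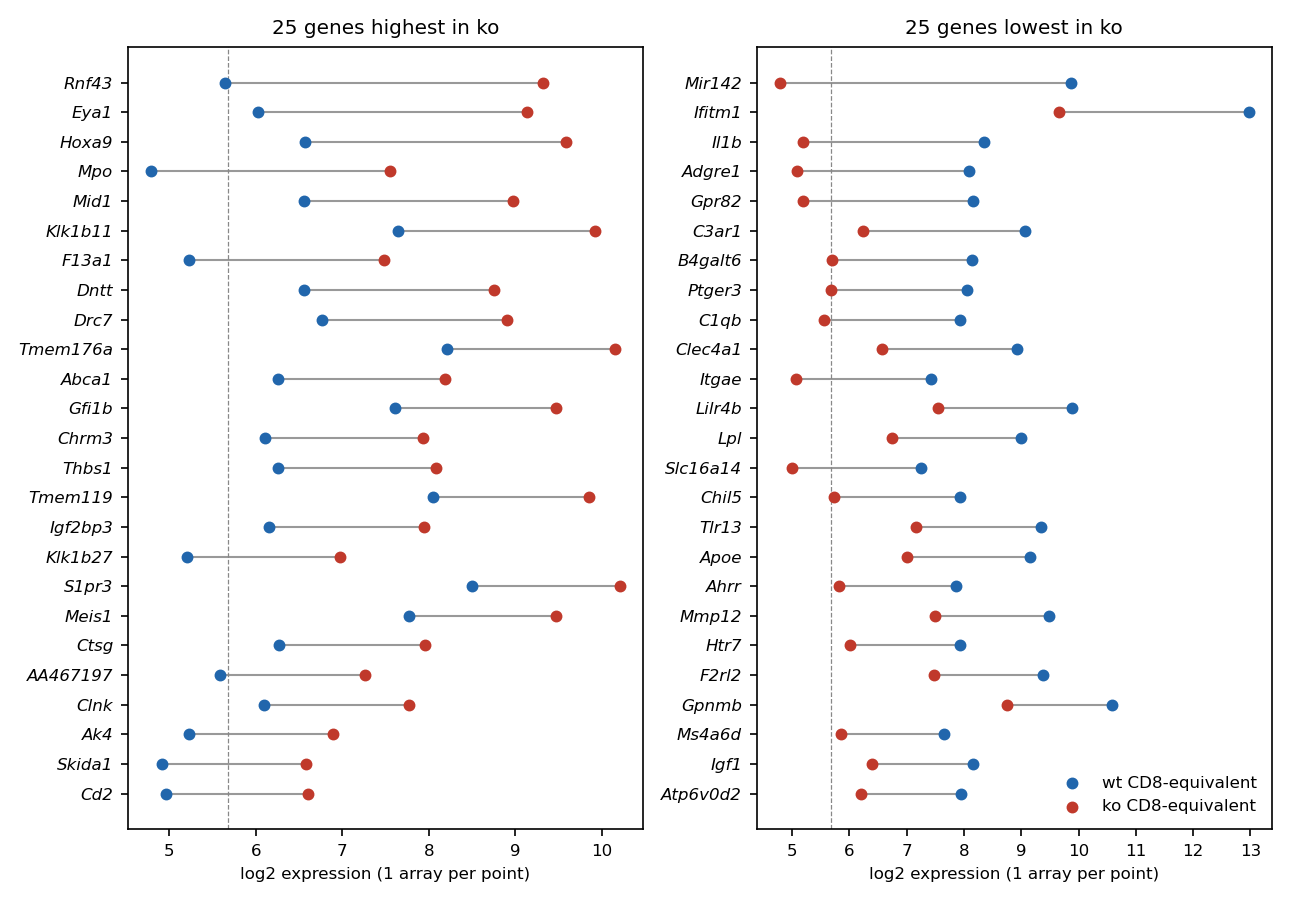
Log2 expression of the 25 genes highest and the 25 lowest in ko relative to wt, 1 point per array (blue wt, red ko), ordered by difference; the dashed line is the floor of 5.68. Rnf43 spans 5.64 to 9.32, and Mir142, Il1b and Adgre1 drop from above the floor in wt to below it in ko.

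All gene lists below were chosen with earlier results of these data known, so their counts describe the members only. Of 32 listed markers of monocytes and macrophages, 30 were measured and 21 compared. Of these 21, 11 were at least 2-fold lower in ko, against 1.00% of all compared genes, and 1, F13a1, was at least 2-fold higher. The ko value was below wt for 17 of 21, and the median over the 30 measured members was -0.49, against -0.0001 over all genes measured. Besides Adgre1, C3ar1, C1qb, Apoe, Mmp12 and Gpnmb the lower members were Lyz2, C1qc, Ms4a7, Hmox1 and Trem2. Lyz2, the lysozyme of macrophages, read 12.75 in wt and 11.31 in ko. Hmox1, which degrades haem, read 7.94 and 6.83, and Trem2, a lipid-sensing receptor, 7.16 and 6.11. Lyz2 shares sequence with Lyz1, which read 6.36 and 5.81, so the values of these paralogs may not be fully separate.

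Some other markers of the same cells did not follow. Csf1r, the receptor for the macrophage growth factor, read 9.96 in wt and 10.33 in ko, Cd14 7.29 and 7.29, and Ccr2 12.53 and 12.46. Fcgr1, the high-affinity receptor for IgG, read 5.89 and 5.84, and Ctsl 9.81 and 9.90. These are among the 9 compared members less than 2-fold apart. Others of the 9 lay further below wt: Cd68 read 11.38 and 10.79, Msr1 6.03 and 5.31, and Pla2g7 6.05 and 5.41. Lyz1 lay below wt too. The list was therefore mixed in the size of its differences, while 17 of 21 lay below wt. The defining tissue macrophage markers Mertk, Cd163, Mrc1, Spic and Vcam1, and also C1qa, Maf, Vcan and Chil3, were under the floor on both CD8-equivalent arrays. The summed level of the list, on the log2 scale after adding linear values, was 14.46 in wt and 13.79 in ko. In a bulk sample of sorted cells, fewer cells of a type and less RNA per cell cannot be told apart, and the part of a differing share of macrophage-like cells in the 2 samples was not tested. The sort took CD172- and CD11b low cells, and the genes of these 2 markers were still above the floor. Sirpa read 9.69 in wt and 9.67 in ko, and Itgam 10.01 and 9.89.

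**Figure D3:**
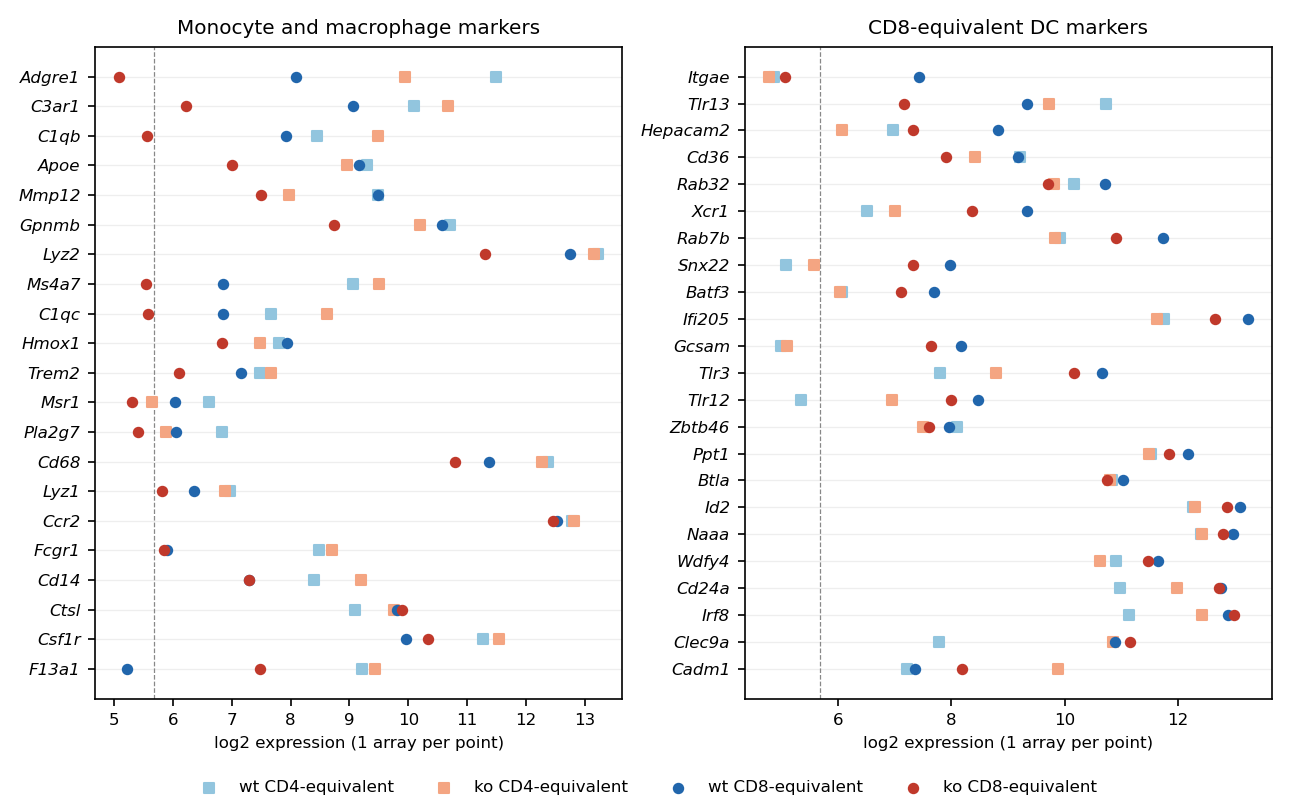
Log2 expression of compared markers of monocytes and macrophages (left) and of CD8-equivalent DCs (right) on all 4 arrays, 1 point per array (squares CD4-equivalent, circles CD8-equivalent; blue wt, red ko), with the floor of 5.68 dashed. For Adgre1 the ko CD8-equivalent point lies lowest of the 4 at 5.08. On the right, ko lies below wt in CD8-equivalent DCs for 20 of 23 markers, and above it for 3, among them Irf8 and Clec9a.

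The complement list shares C1qb, C1qc and C3ar1 with the macrophage list. Of 19 measured complement genes 8 were compared, and C1qb, C1qc and C3ar1 were at least 2-fold lower, against 1.00% of all compared genes. C1qc, which encodes another chain of the recognition protein C1q, read 6.84 in wt and 5.58 in ko. Cfp, which encodes the convertase stabiliser properdin, read 11.95 and 11.74. The other compared members were less than 2-fold apart, and the median over the list was -0.0010.

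Genes that export and deliver lipids went both ways. Of 13 measured genes of cholesterol efflux and nuclear receptors 11 were compared. Abca1 was at least 2-fold higher, against 1.14% of all compared genes, and Apoe and Lpl at least 2-fold lower, against 1.00%. Abcg1, another cholesterol pump, read 10.58 in wt and 10.77 in ko, and Pltp, which transfers phospholipids between lipoproteins, 9.93 and 10.59. Pparg, the lipid-sensing nuclear receptor of macrophages, read 6.58 and 5.70. The list's median was 0.19. Of 24 genes of sterol and fatty acid synthesis 0 were 2-fold apart, with a median of -0.07. Below wt lay 17, against 49.3% of all compared genes. Hmgcs1, an early enzyme of the mevalonate pathway, read 10.91 and 10.64, and the desaturase gene Scd1 5.58 and 6.51.

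Scavenger and apoptotic cell receptors had a median of 0.01 over 30 measured genes. Of 19 compared, Abca1 was at least 2-fold higher and Cd36 at least 2-fold lower, against 1.14% and 1.00% of all compared genes. Cd36, which binds oxidised lipids and dying cells, read 9.17 in wt and 7.90 in ko. Itgav, an integrin chain that binds apoptotic cells through a bridging protein, read 9.40 and 10.18, and its partner Itgb5 7.04 and 7.72. Clec7a, the receptor for fungal beta-glucan, read 7.15 and 6.24.

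Of 31 listed markers of CD8-equivalent DCs, 28 were measured and 23 compared, and 20 of these 23 lay below wt, against 49.3% of all compared genes. In the list, 5 genes were at least 2-fold lower (Itgae, Tlr13, Hepacam2, Cd36 and Rab32), against 1.00% of all compared genes. At least 2-fold higher were 0. Hepacam2, an adhesion molecule of the immunoglobulin family, read 8.83 in wt and 7.32 in ko, and Rab32, a GTPase of lysosome-related organelles, 10.71 and 9.70. The median over the measured members was -0.35, and the summed level was 15.95 in wt and 15.68 in ko. In wt CD4-equivalent DCs Tlr13 read 10.72 and Cd36 9.21, above their wt CD8-equivalent values of 9.34 and 9.17. Tlr13 and Cd36 were thus not particular to this subset here. Hepacam2 (6.96) and Rab32 (10.16) read lower in wt CD4-equivalent DCs, and Itgae was under the floor there. Itgae and Cd36 are not made by cDC1 alone, and the macrophage markers above were lower in ko too. The part of other cells in this difference was not tested.

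The defining members of the list differed less. Xcr1, the receptor for the T cell chemokine XCL1, read 9.33 in wt and 8.36 in ko, 1.96-fold lower. Batf3 read 7.70 and 7.11, and Tlr3, a sensor of double-stranded RNA, 10.66 and 10.16. Cadm1, an adhesion molecule of this lineage, was on the other side at 7.36 and 8.18. Wdfy4, which is needed to present antigens of dead cells, read 11.65 and 11.46, and Id2, an inhibitor of DNA-binding factors needed by the lineage, 13.09 and 12.87. Cd8a and Ly75 (DEC-205), expressed by the splenic counterpart, were under the floor on both arrays. The list members Cxcl9, Plet1 and Gpr33 were under it too, and Itgae in ko alone. The other markers of the subset were above the floor on both arrays.

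Markers of CD4-equivalent DCs were lower in ko for 16 of 23 compared genes, against 49.3% of all compared genes, with a median of -0.21 over 29 measured. The 4 members at least 2-fold lower were Clec4a1, Clec4a2, Clec4a3 and Ms4a4c, against 1.00% of all compared genes, and 0 were 2-fold higher. Clec4a2, an inhibitory lectin (DCIR), read 6.91 in wt and 5.71 in ko, Clec4a3 6.87 and 5.16, and Ms4a4c 12.21 and 11.07. These lectin genes are neighbouring paralogs, so shared probe sequence is possible. Cx3cr1, the fractalkine receptor, read 9.16 and 9.66, Zeb2, a repressor of the cDC1 fate, 10.24 and 10.55, and Irf4 7.76 and 7.51.

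A list of C-type lectins holds the same Clec4a genes, which are counted in it again. Of 33 measured lectin genes 19 were compared. At least 2-fold lower were 5 (Clec4a1, Clec4a2, Clec4a3, Clec4d and Klrb1b), against 1.00% of all compared genes. Clec2i was at least 2-fold higher, against 1.14%. Klrb1b, an inhibitory receptor for another lectin, read 10.52 in wt and 9.44 in ko, and Clec2i, a ligand of NK lectins, 8.21 and 9.58. Clec10a, which binds galactose-type sugars, read 8.41 and 9.04, and Cd209a 9.20 and 8.76. The median over the measured members was -0.21. Among integrins, 14 of 23 were compared, with a median of -0.0014. Itgae and Itga1 were at least 2-fold lower, against 1.00% of all compared genes. Itga1, a collagen receptor chain, read 10.20 and 8.86, and Itgb3 7.64 and 8.59.

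Of 20 compared markers of plasmacytoid DCs, 14 lay above wt, against 50.7% of all compared genes. In the list 1 gene, Klk1b27, whose value is uncertain as said above, was at least 2-fold higher and 0 lower, against 1.14% higher of all compared genes. The median of the 21 measured genes was 0.17. Tcf4, the factor that sets the plasmacytoid fate, read 11.08 in wt and 11.54 in ko, Ccr9 9.52 and 10.10, and Siglech 11.34 and 11.76. Each of these stood 0.42 to 0.58 higher in ko, less than 2-fold. The summed level of the list was 14.42 in wt and 14.59 in ko.

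Of 30 measured stem cell, Hox and Meis genes, 16 were compared and 6 were at least 2-fold higher in ko (Eya1, Hoxa9, Igf2bp3, Meis1, Hoxa6 and Hoxa5), against 1.14% of all compared genes, with 0 at least 2-fold lower. This list was drawn up with earlier results of these data known and holds several of the 25 highest genes. Its count therefore describes the members and is no independent support. Hoxa6 read 5.62 in wt and 7.20 in ko, and Hoxa5 6.29 and 7.62. Hoxa7 read 8.12 and 8.94, Hoxa4 6.03 and 6.40, and Hoxa3 5.03 and 5.93. In the HoxA cluster, which patterns the embryo and is active in blood progenitors, the 6 compared genes thus all had the higher value in ko. Hoxa2, Hoxa10, Hoxa11 and Hoxa13 were under the floor. Hoxb3 (5.97 and 6.05) and Hoxb4 (6.19 and 5.94) of another cluster were close to equal. Kit, the stem cell factor receptor, was lower in ko at 9.76 and 9.16, and Cd34 read 7.46 and 7.37, so these surface markers of progenitors did not share the direction. The median over the measured members was 0.10.

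Lymphoid progenitor genes lay above wt in 12 of 13 compared genes, against 50.7% of all compared genes. At least 2-fold higher were 2 of them, Dntt and Rag1, against 1.14% of all compared genes, and 0 were lower. The median difference of the 19 measured genes was 0.30. Rag1, which cuts antigen receptor genes, read 5.34 in wt and 6.52 in ko. Sox4, a factor of early lymphocytes, read 6.90 and 7.87, Notch1 9.53 and 10.17, and Cd93, a surface marker of early B cells and progenitors, 10.86 and 11.71. Ebf1, which starts the B cell programme, read 4.86 and 5.69, just above the floor in ko. Ly6d was the exception at 9.39 and 8.90. In CD4-equivalent DCs the median of this list was -0.03, and the difference between the subsets was not tested.

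Myeloid progenitor and granule enzyme genes had a median of 0.08 over 20 measured. Among 13 compared genes Mpo and Ctsg were at least 2-fold higher, against 1.14% of all compared genes. Prtn3, another protease of the primary granules, read 8.04 in wt and 8.41 in ko, while Elane, Ms4a3, Cebpe, Gfi1 and Fcnb were under the floor on both arrays. Myb, a factor of proliferating progenitors, read 10.00 and 10.93. Of 20 measured neutrophil markers, 15 were under the floor in both CD8-equivalent samples, including S100a8, S100a9, Lcn2, Ngp, Camp and Ly6g. The list's median was 0.03, and its summed level was 11.46 in wt and 11.45 in ko. Its 2 members at least 2-fold higher were again Mpo and Ctsg, against 1.14% of all compared genes.

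Markers of other blood lineages were mostly under the floor. Of 13 measured B cell markers 6 were compared, and all 6 had the higher value in ko, against 50.7% of all compared genes. Among them 0 were 2-fold apart, and the list's median was 0.13. Ms4a1, Cd79a and Pax5 were under the floor, and Cd22 read 8.51 in wt and 9.11 in ko. Of 16 measured T and NK cell markers 4 were compared, and Cd2 was at least 2-fold higher, against 1.14% of all compared genes. The CD3 chains were under the floor, and the list's median was 0.12. Of 11 erythroid and megakaryocyte markers 2 were compared, the transferrin receptor gene Tfrc (11.24 and 11.84) and the platelet chemokine gene Ppbp (5.66 and 6.78), with a median of 0.06. Of 18 markers of mast cells, basophils and eosinophils 3 were compared, with Cpa3 at 4.90 and 5.93 and a median of -0.06. The summed levels in wt and ko were 10.80 and 11.09 for B cells, 11.64 and 11.68 for T and NK cells, 11.43 and 11.99 for erythroid and megakaryocyte cells, and 10.48 and 10.15 for the last list. The part of such cells in the differences above was not tested. The sort took B220- cells, and plasmacytoid marker genes still read well above the floor in wt and ko. Siglech read 11.34 and 11.76, and Cox6a2 11.34 and 11.44.

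Of 29 measured genes that have been reported as targets of miR-142, 24 were compared, and 19 of the 24 had the higher value in ko, against 50.7% of all compared genes. Their median was 0.20 over the 29. Cfl2 and Wasl were at least 2-fold higher, and Cd84 was at least 2-fold lower, against 1.14% and 1.00% of all compared genes. Cfl2, a cofilin that severs actin filaments, read 9.14 in wt and 10.41 in ko, and Wasl (N-WASP), which starts actin branches, 8.67 and 9.81. Tgfbr1, the signalling receptor chain for TGF-beta, read 9.40 and 10.39, Twf1, an actin-binding twinfilin, 10.13 and 10.94, and Itgav 9.40 and 10.18. Lrp8, a lipoprotein receptor, read 9.77 and 10.53, Hmgb1, a chromatin protein, 8.84 and 9.56, and Ctnnb1 (beta-catenin) 11.39 and 11.94. Cd84, an adhesion receptor of leukocytes, was on the other side at 8.49 and 7.14. Gnb2, Gnai2, Tab2 and Fam126a lay slightly below wt, with differences from -0.08 to -0.03, and Rac1 and Sirt1 differed by 0.01 and 0.03. The reported target Il6 was under the floor on both arrays. The target list was drawn up with results of these data known and holds genes from different cell types, so it does not measure how many targets respond.

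The actin machinery as a whole was level. Of 34 compared actin and migration genes 16 lay above and 18 below wt, against 50.7% and 49.3% of all compared genes. The median was -0.0026 over 35 measured. The 2 at least 2-fold higher were Cfl2 and Wasl of the target list, against 1.14% of all compared genes. Cfl1, the main cofilin, read 12.69 in both, and Was, the blood cell relative of Wasl, 9.86 in wt and 9.55 in ko. Twf2, the other twinfilin, read 10.91 and 10.51.

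In the TGF-beta and Wnt list, 22 of 29 measured genes were compared, and the median was 0.0010. Rnf43 was at least 2-fold higher, against 1.14% of all compared genes, and 0 were lower, against 1.00%. Smad5, a transducer of bone morphogenetic proteins, read 8.30 in wt and 9.18 in ko, and Acvr2a, an activin receptor and reported target, 7.39 and 8.10. Znrf3, a ligase related to Rnf43, read 6.67 and 7.19. In the microRNA machinery 12 of 15 compared genes lay above wt, against 50.7% of all compared genes, with 0 at 2-fold and a median of 0.16. Dgcr8, which binds primary hairpins, read 8.88 and 9.50, Dicer1 10.01 and 10.28, and the silencing scaffold gene Tnrc6b 9.49 and 10.02. Prkra, a Dicer partner, read 8.66 and 8.02.

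In RefSeq order Rnf43 lies 5 genes before Mir142 and Mpo 3 genes after it. Of 14 measured genes on a separate list drawn up for the neighbourhood 9 were compared, at a median of 0.08. Rnf43, Mpo and Ppm1e (6.31 in wt and 7.39 in ko) were at least 2-fold higher, against 1.14% of all compared genes. Mir142 was lower by as much, against 1.00%. Ppm1e is not among the 12 genes on either side of Mir142 in RefSeq order. Mtmr4 (9.96 and 9.98), Mks1 (6.03 and 6.04) and Dynll2 (10.13 and 10.11) were nearly equal, and Tspoap1, the next gene after Mir142, was under the floor.

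Type I interferons induce a large set of antiviral genes, many of which carry a promoter element called the ISRE. Of 29 compared interferon-stimulated genes 23 lay below wt, against 49.3% of all compared genes, and the median was -0.36 over 40 measured. In this list 4 genes were at least 2-fold lower (Ifitm1, Ifitm6, Isg20 and Dhx58), against 1.00% of all compared genes, and 0 higher. In the Ifitm family, whose members sit side by side and share sequence, Ifitm6 read 11.56 in wt and 9.90 in ko, Ifitm3 12.99 and 11.998, and Ifitm2 13.14 and 12.39. All 4 measured Ifitm genes of the list were thus lower in ko, and Ifitm1 by most. Isg20, an exonuclease of viral RNA, read 7.59 and 6.55.

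The RNA sensors of the list also had lower values in ko. Dhx58, which encodes LGP2, read 8.96 in wt and 7.93 in ko, Ddx58, which encodes RIG-I, 6.15 and 5.23, and Ifih1, which encodes MDA5, 7.49 and 7.26. Among factors of the pathway, Irf7 read 7.94 and 7.39, Irf9 9.87 and 9.46, and Stat2 9.82 and 9.44. Usp18, a brake on the receptor, read 8.31 and 7.56. The 6 members above wt were Gbp4 (5.04 and 5.90), Ly6e (12.97 and 13.12), Ifit3 (5.87 and 5.96), Cmpk2 (7.41 and 7.50), Mx2 (5.97 and 6.05) and Bst2 (10.35 and 10.40). Ifit1, Ifit2, Rsad2, Oas1a and 7 other members were under the floor on both arrays, so a lower value could not show there. The receptor genes Ifnar1 (10.68 and 10.71) and Ifnar2 (12.56 and 12.56) were nearly equal.

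Because these members tended to lie low together, their promoters were searched for the core of the ISRE, 2 copies of GAAA with 2 bases of any kind between them on either strand, in RefSeq windows from 250 bases before to 50 after the start on GRCm38.p6. The motif occurred in 3.99% of 27025 genes with a window and in 3.63% of 8081 compared genes. Of the 29 compared interferon-stimulated genes 21 had a window, and 10 of the 21 held the motif. Of these 10, 8 had the lower value in ko, against 49.3% of all compared genes and 23 of the 29 compared list members. The 8 were Ifitm3, Ddx58, Ifitm2, Trim30a, Irgm1, Stat2, Eif2ak2 and Ifih1, and Bst2 and Ifit3 had the higher value. A link between the motif and the differences was not tested. The median difference was -0.39 for the 10 genes with the motif and -0.55 for the 11 without it. The 250 bases before the start are shown for the 2 genes with the largest differences whose motif lies wholly before it, read on the gene's own strand, with the match in capitals. Ifitm2 lies at chr7:140955962-140956211 and Trim30a, a regulator of Toll-like receptor signalling, at chr7:104465194-104465443, both on the minus strand.
Ifitm2: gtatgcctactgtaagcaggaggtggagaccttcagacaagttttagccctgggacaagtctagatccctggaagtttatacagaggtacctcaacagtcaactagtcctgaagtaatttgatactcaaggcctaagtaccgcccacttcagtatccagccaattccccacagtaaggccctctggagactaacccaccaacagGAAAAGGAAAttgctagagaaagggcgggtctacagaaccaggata
Trim30a: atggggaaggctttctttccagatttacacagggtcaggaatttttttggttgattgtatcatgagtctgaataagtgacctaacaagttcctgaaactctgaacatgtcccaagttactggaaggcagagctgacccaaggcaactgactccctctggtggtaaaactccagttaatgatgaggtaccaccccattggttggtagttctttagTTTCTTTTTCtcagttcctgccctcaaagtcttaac
The match ends 37 bases before the start in Ifitm2 and 27 in Trim30a, where it is on the opposite strand. Trim30a read 11.97 in wt and 11.31 in ko. A match is a description of letters, and binding was not measured.

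Toll-like receptors and their adaptors were all above the floor in some sample. Below wt lay 19 of 26, against 49.3% of all compared genes, with a median of -0.26. Tlr13 was at least 2-fold lower, against 1.00% of all compared genes, and 0 were higher. Tlr8 read 5.93 in wt and 5.03 in ko, Tlr1 9.57 and 8.92, and Tlr4, the receptor for endotoxin, 7.50 and 6.92. Its partner Ly96 (MD-2) read 9.63 and 8.65. Tlr2 (8.81 and 8.88), Tlr7 (8.70 and 8.97) and Tlr9 (10.90 and 10.69) differed by under 0.3. Of the adaptors, Myd88 read 11.22 and 10.83 and Unc93b1, which escorts receptors to endosomes, 12.22 and 12.19.

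In the interleukin-1 and inflammasome list 11 of 17 compared genes lay below wt, against 49.3% of all compared genes, and the median was -0.13. Il1b was at least 2-fold lower, against 1.00%, and 0 were higher. Casp1, which cuts the Il1b precursor, read 8.92 in wt and 8.52 in ko, Nlrc4 9.08 and 8.44, and Nlrp3 8.38 and 8.59. Casp4, an inflammatory caspase, read 6.08 and 5.55, Gsdmd, which forms the pores for release, 7.57 and 7.17, and the inflammasome adaptor gene Pycard 10.84 and 10.64. Apart from Nlrp3 these genes lay below wt too, by less than 2-fold. Among cytokines and NF-kB feedback genes, 15 of 22 lay below wt, against 49.3% of all compared genes, and the median was -0.09. At least 2-fold higher was Il12a, against 1.14%, and 0 were lower. Il12a, the p35 subunit of interleukin-12, read 8.17 and 9.36, Ebi3, which pairs with p28 in interleukin-27 and with p35 in interleukin-35, 10.10 and 9.29, and Tnf 8.16 and 8.08. Il12b, Il6, Il10 and Ifnb1 were under the floor.

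Costimulation and maturation genes lay below wt in 13 of 17 compared, against 49.3% of all compared genes, with a median of -0.10. Cd86 was at least 2-fold lower, against 1.00%, and 0 were higher. The CD28 ligand genes Cd86 and Cd80 read 9.36 and 9.65 in wt and 8.23 and 8.70 in ko. Cd83, a surface marker of mature DCs, read 9.51 and 8.89, Cd40 6.77 and 6.73, and Ccr7, the lymph node homing receptor, was on the other side at 8.00 and 8.80. In the list of DC transcription factors and growth factor receptors, 30 were compared and the median was -0.09. Csf2rb was at least 2-fold lower, against 1.00% of all compared genes, and 0 were higher. Csf2rb, the shared chain of the GM-CSF, interleukin-3 and interleukin-5 receptors, read 11.35 and 10.27, and its close paralog Csf2rb2 11.02 and 10.15. Flt3, the receptor for the cytokine of the culture, read 11.74 and 11.90.

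Of 25 measured chemokines 18 were under the floor, and 7 were compared, with a median of -0.05. Ccl9 was at least 2-fold lower and Ppbp at least 2-fold higher, against 1.00% and 1.14% of all compared genes. Ccl9 read 7.80 in wt and 6.06 in ko, Cxcl16 8.55 and 7.55, and Ccl3 8.93 and 9.87. Among 13 compared chemoattractant receptors S1pr3 was at least 2-fold higher, against 1.14% of all compared genes, 0 were lower, and the median was -0.05. Cxcr3 read 9.18 and 8.52, and Cxcr4 10.21 and 10.73.

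Eicosanoid genes went both ways. Of 19 compared, Alox5 was at least 2-fold higher, against 1.14% of all compared genes. Ptger3, Ptger2 and Tbxas1 were at least 2-fold lower, against 1.00%, and the median over 26 measured was 0.04. Alox5, the enzyme that begins leukotriene synthesis, read 7.37 in wt and 8.45 in ko, and Tbxas1, which makes thromboxane, 10.39 and 9.27. Ptger2 read 6.42 and 5.02, whereas Ptger4, a further receptor for prostaglandin E2, read 10.25 and 10.35. Of the prostaglandin E2 receptors, the 2 lower ones were thus at or under the floor in ko. Hpgds, which makes prostaglandin D2, read 10.89 and 9.95.

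Antigen presentation genes differed by small amounts, mostly downwards. Of 13 compared MHC class II genes 10 lay below wt, against 49.3% of all compared genes. In this list 0 were 2-fold apart, and the median was -0.21. Ciita, the coactivator of the class II genes, read 10.18 in wt and 9.56 in ko, H2-Aa 13.24 and 13.04, H2-Ab1 13.23 and 13.01, and Cd74 12.84 and 12.65. Of 20 MHC class I genes 16 lay below wt, against the same 49.3%. Here again 0 were at 2-fold, and the median was -0.18. The immunoproteasome gene Psmb9 read 10.95 and 10.54, Tap1 10.91 and 10.66, and B2m 13.49 and 13.41.

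Of 24 compared lysosomal genes, Ctse was at least 2-fold lower, against 1.00% of all compared genes. In that list 0 were higher, and the median over 26 measured was -0.07. Ctse, an aspartic protease of endosomes, read 7.25 in wt and 5.54 in ko. Ctss, which trims the class II chaperone, read 11.66 and 11.39, and Ctsd 11.25 and 11.02. Among Fc receptors 6 of 13 were compared, with a median of -0.05 over those measured. Fcgr3 was at least 2-fold lower at 6.64 and 5.59, against 1.00% of all compared genes. Fcgr2b, the inhibitory receptor, read 10.01 and 10.11.

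Cell cycle genes had higher values in ko by small amounts across nearly all members. Of 27 mitosis genes 27 lay above wt, against 50.7% of all compared genes, and 0 of them by 2-fold. Their median was 0.33, with a range from 0.05 to 0.96. Mki67, a marker of cycling cells, read 11.79 in wt and 12.27 in ko, Top2a 11.29 and 11.75, and Anln, a scaffold of the dividing furrow, 9.74 and 10.70. Of 27 replication genes 26 lay above wt, against the same 50.7%, 0 at 2-fold, with a median of 0.25. Mcm6, a helicase subunit, read 11.03 and 11.34, Pole, a replicative polymerase, 9.56 and 10.08, and Ccne1, the exception, 9.20 and 9.04. In CD4-equivalent DCs, where 36.2% of all compared genes lay above wt and 63.8% below, 27 of 27 mitosis genes and 9 of 27 replication genes lay above, with medians of 0.46 and -0.04, and the difference between the subsets was not tested.

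The remaining lists stayed near 0. Of 29 compared immediate-early and stress genes 20 lay below wt, against 49.3% of all compared genes, and the median was -0.08. Atf3 and Ier3 were at least 2-fold lower, against 1.00%, and 0 higher. Atf3 read 8.89 in wt and 7.49 in ko, Fos 8.73 and 8.32, Jun 8.62 and 8.22, and Egr1 8.94 and 9.52. Of 12 compared Bcl2 family genes 0 were 2-fold apart, with a median of -0.03, and Bcl2 itself read 10.75 and 11.37. Of 24 genes of ER folding and the unfolded protein response Trib3 (7.03 and 5.85) was at least 2-fold lower, against 1.00% of all compared genes. In that list 0 were higher, and the median was 0.06. Of 18 compared glycolysis genes 0 were 2-fold apart, with a median of -0.02.

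**Figure D4:**
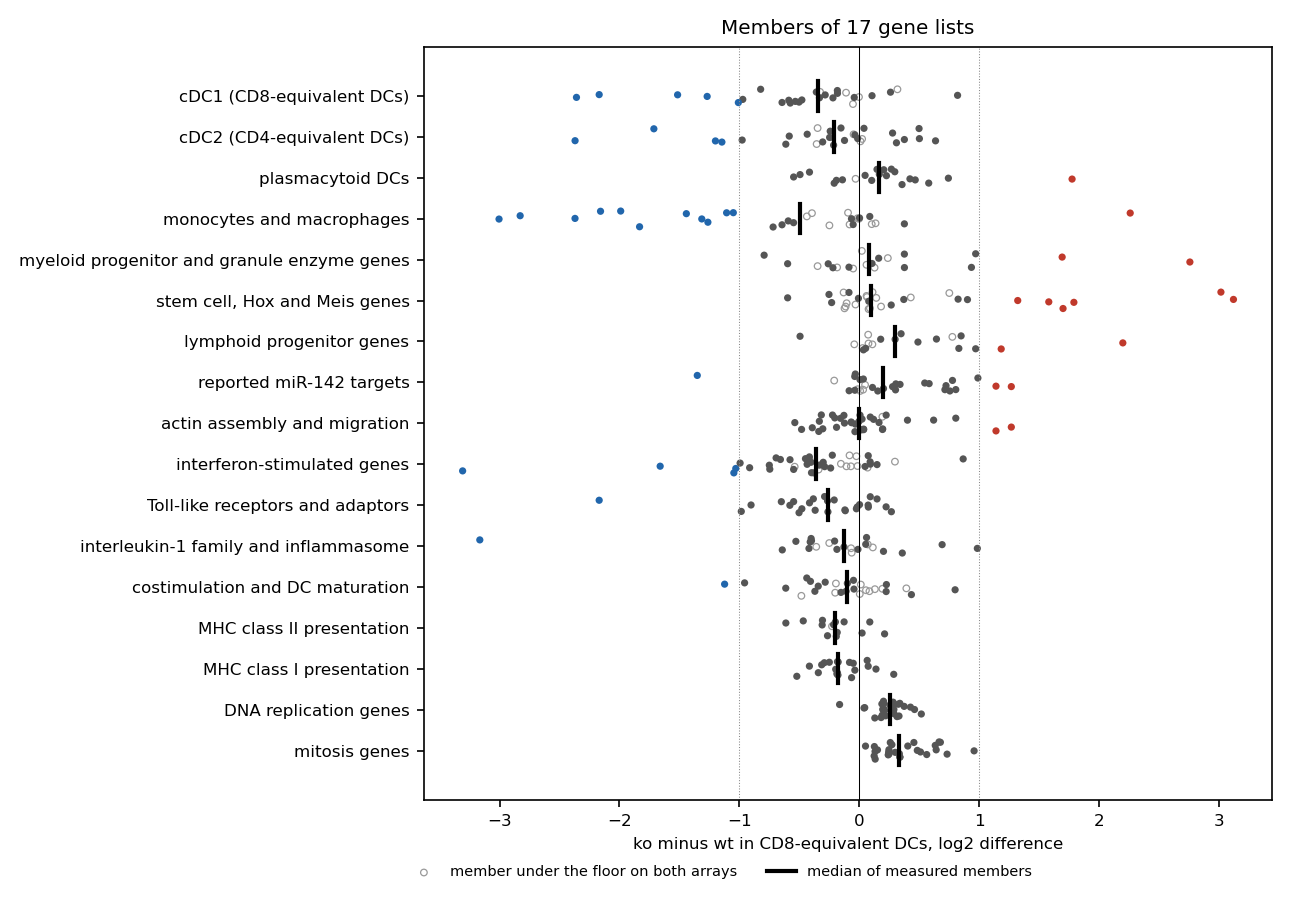
Ko minus wt log2 differences in CD8-equivalent DCs for members of 17 gene lists, 1 point per gene (filled at or above the floor, open under it on both arrays; red and blue at least 2-fold higher and lower), with the median of measured members as a bar. Macrophage markers spread to the left with a median of -0.49, the stem cell, Hox and Meis list spreads to the right around a median of 0.10, and mitosis genes sit in a tight group above 0.

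The same 214 genes were then read on the CD4-equivalent arrays, which share no array with the comparison above but may share a culture. Of the 114 genes higher in ko CD8-equivalent DCs, 89 were compared there. The ko value was also the higher one for 85 of these, against 36.2% of all genes compared in CD4-equivalent DCs. It was at least 2-fold higher for 40, against 1.39% of all genes compared there. Of the 100 lower genes 95 were compared and 85 also had the lower value, against 63.8% of all genes compared there. By at least 2-fold 31 were lower, against 0.952%. Genes at least 2-fold apart in either direction made up 2.35% of those compared in CD4-equivalent DCs. The medians of the CD4-equivalent differences were 0.93 for the higher and -0.62 for the lower genes, against -0.08 over all genes compared there. The rest were under the floor in CD4-equivalent DCs, 25 of the higher and 5 of the lower genes.

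Some genes stood 2-fold apart in the CD8-equivalent arrays and close together in the CD4-equivalent ones. The CD4-equivalent difference was under 0.5 in size, in either direction, for 10 of the 89 higher and 34 of the 95 lower genes. The same share over all genes was not counted. Lyz2 was lower by 1.44 in CD8-equivalent DCs but read 13.24 in wt and 13.17 in ko CD4-equivalent DCs, and Lpl read 9.83 and 10.23. Other genes had the higher value in ko there. C3ar1 read 10.10 in wt and 10.67 in ko CD4-equivalent DCs, and C1qb 8.45 and 9.48, so that C1qb was 2-fold apart in opposite directions. Of the genes higher in ko CD8-equivalent DCs, F13a1 read 9.21 and 9.44 in CD4-equivalent DCs, and Dntt was under the floor at 4.97 and 5.18. By contrast Gpr82 (8.63 and 5.76), Ptger3 (9.99 and 7.26) and Slc16a14 (8.72 and 5.43) were lower in ko by at least 2-fold in both subsets. Clec9a, nearly level in CD8-equivalent DCs, read 7.78 in wt and 10.85 in ko CD4-equivalent DCs. None of these differences between subsets was tested, since each group has 1 array.

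**Figure D5:**
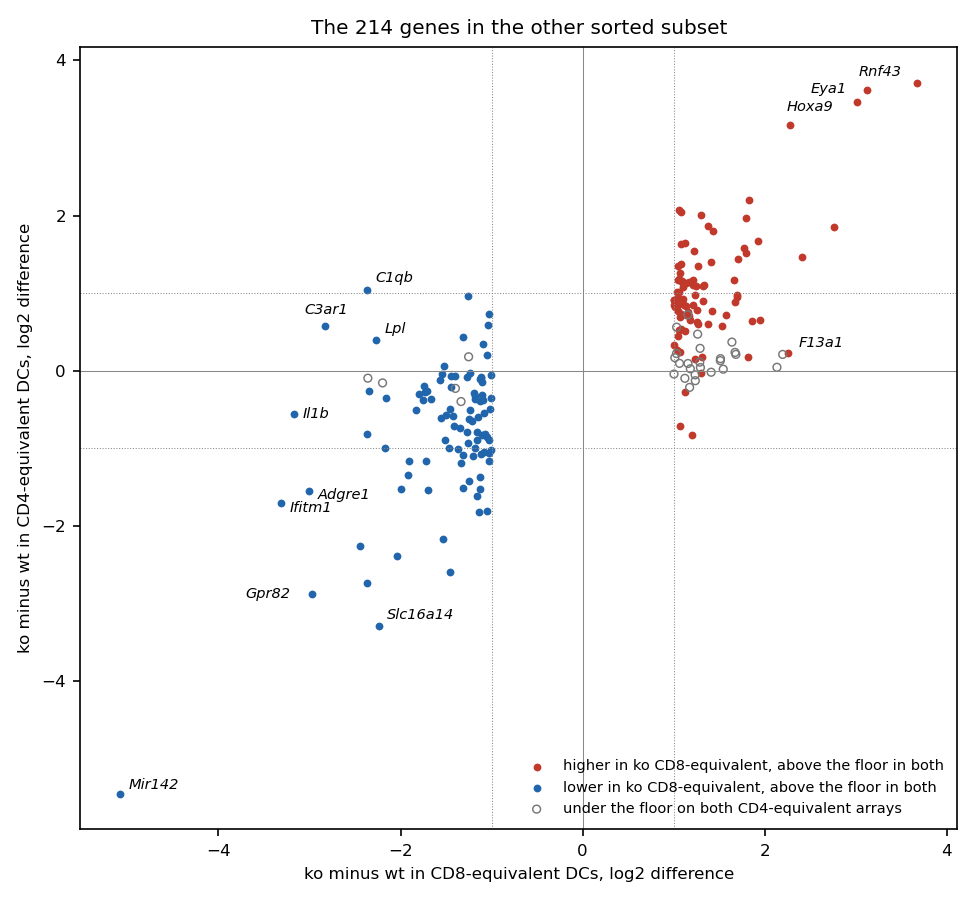
Ko minus wt log2 differences of the 214 genes in CD8-equivalent (horizontal) and CD4-equivalent DCs (vertical), 1 point per gene; open points were under the floor on both CD4-equivalent arrays and dotted lines mark 2-fold. Rnf43, Eya1 and Hoxa9 lie far out on both axes, and C1qb lies beyond 2-fold in opposite directions, at -2.37 and 1.03.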

How the data were processed

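Total RNA of 4 sorted cell samples was hybridised to Affymetrix arrays, 1 array a group. The authors deposited 1 log2 value per probe set and array. Per the submitters' processing notes these were made with RMA and Partek, with versions not given in the sources used here. Base 2 of the logarithm is inferred from a range of 3.52 to 14.3, and scanner values were not used here. RMA adjusts background, normalises by quantiles and summarises probes, and it shrinks differences at low values, so a fold from a value near the floor is understated or blurred. No detection calls were used, and precision is limited by having 1 array a group.

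Of 35399 probe sets, 21789 named 1 gene in the platform annotation of 2016, 1621 named several and 11989 were unnamed here. By gene ID, 21698 matched RefSeq of GRCm38.p6, and 0 symbols differed. A gene with several probe sets (999 genes) was read from the probe set whose mean over the 4 arrays was highest, which left 19938 genes. Per array 9774 to 9821 genes reached the floor, and the array medians were 5.87 (wt) and 5.94 (ko CD8-equivalent). The annotation names no assembly, so probe sets have no coordinates here, and RefSeq gave names, gene order and the printed sequences.

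The difference ko minus wt was taken per gene with Python 3.11.15 and pandas 2.3.3, with no test. Genes were named by a rule: Mir142, the sort marker genes, the 25 highest and 25 lowest compared genes, compared members of 42 gene lists, and genes 2-fold apart in opposite directions in the subsets. The genes at the edges of the floor and of 2-fold were named after their values were seen. The members and lists were chosen with earlier results of these data known. Counting was run on simulated data with large planted changes, which checks the code only and not the variation between cultures or mice. Alternatives were cyclic loess (limma 3.58.1 in R 4.3.3), quantile normalisation of the 2 arrays, centring, other floors, the mean over probe sets, and keeping probe sets with several symbols.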

Additional observations from a re-analysis of the deposited data

Results flagged for a closer look

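C1qb, which encodes a chain of the complement protein C1q, was lower in ko CD8-equivalent DCs by a log2 difference of -2.37 and higher in ko CD4-equivalent DCs by 1.03. It stood out because the arrays of the subsets differed by at least 2-fold in opposite directions. The difference between the subsets was not tested, since each group has 1 array, and the ko value in CD8-equivalent DCs, 5.56, lay under the floor. C1qc, another chain, differed by -1.26 and 0.96.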

How the results depend on the processing

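The counts of genes at least 2-fold higher and lower in ko (114 and 100) stayed within 1.5 times of these under every alternative run. They were 104 and 106 after cyclic loess, 86 and 112 after quantile normalisation of the 2 arrays, and 87 and 78 with both values required at the floor. The higher genes made up 53.3% as reported and 43.4% after quantile normalisation. Of the 214 genes, 204, 186 and 165 kept their direction and size in these settings, and 210 to 214 in the others. No 2-fold difference turned its sign among the 646 named genes.

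With both values required at the floor, 11 of 42 list medians moved. They became -0.49 for CD8-equivalent markers, -0.82 for macrophage, 0.20 for neutrophil, 0.41 for B cell, 0.60 for erythroid and megakaryocyte and -0.48 for mast cell, basophil and eosinophil markers. They became 0.32 for stem cell, Hox and Meis genes, -0.16 for complement, 0.042 for C-type lectins (-0.21 as reported), -0.80 for chemokines and 0.11 for chemokine receptors (-0.05 as reported). This setting leaves fewer genes in each list. Under another scaling 6 list medians of at most 0.04 in size turned sign: actin, glycolysis, neutrophil, scavenger receptor, eicosanoid, and TGF-beta and Wnt genes. So did 33 of the named genes, with differences of at most 0.12.

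No paired analysis was possible because each group has 1 array, and for the same reason no array could be left out. Dropping the floor gave 114 and 101 genes, and list medians were already taken over all measured members. Counts of list members were taken over compared members. Over compared members alone the median was -1.05 for macrophage markers, 0.60 for stem cell, Hox and Meis genes, 0.51 for B cell markers and -0.20 for complement. For Toll-like receptors and adaptors, all of them compared, it was -0.26 either way. Low values limit the folds: wt was under the floor for 27 of the higher genes and ko for 22 of the lower genes.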
